A study of Mus musculus with 2 samples.

Results

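The semaphorin, plexin, ephrin, Eph, Slit, Robo and netrin genes, which encode ligands and receptors of cell guidance, were read in single cells of the yolk sac. Members were the gene rows of both count tables whose symbol begins with Sema3 to Sema7, Plxn, Epha, Ephb, Efna, Efnb (each Eph and ephrin prefix followed by a number) or Ntn, or is Robo1 to Robo4 or Slit1 to Slit3. The pattern matched 65 of 23154 genes, and 62 remained once *Plxnd1*, *Ephb4* and *Efnb2* had been left out. They were 20 semaphorins, 9 plexin rows, 9 EphA and 4 EphB receptors, 5 ephrin-A and 2 ephrin-B ligands, 4 Robo receptors, 3 Slits and 6 netrin rows.

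PK44 cells are a sorted population (CD41-CD43-CD45-CD31+CD201+Kit+CD44+) that the study used as endothelial cells with blood-forming potential. The 87 cells came from the yolk sac of E10.0 embryos of mice kept on a C57BL/6 background, and the labels name no transgene or treatment. They formed 1 group with 2 libraries, of 43 cells (replicate 1, here library 1) and 44 cells (replicate 2, here library 2), and no other tissue or condition was analysed here. Nothing in the labels says that the libraries came from separate embryos, so the spread between them may be technical.

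Eph receptors are tyrosine kinases that bind ephrins on neighbouring cells, with EphA receptors binding mostly the lipid-anchored ephrin-A ligands and EphB receptors the transmembrane ephrin-B ligands. Plexins are the receptors of semaphorins, for which neuropilins serve as coreceptors of the secreted class, and Robo proteins include the receptors of Slits. These systems were first known from growing axons, and in the vasculature they take part in setting arterial and venous borders and in the sprouting and permeability of vessels.

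Library 1 held 8932527 counts (13218 to 702028 per cell, median 141577) and library 2 held 12706360 (51620 to 956593, median 238898.5). A library's level is given as CPM, the counts of a gene summed over the cells of the library, per 1000000 of all its summed counts. The counts came from transcript ends, so levels were not divided by gene length. A level of 3 counts, taken as the floor, was 0.336 CPM in library 1 and 0.236 CPM in library 2. All 10 endothelial marker genes had counts, summing to 3058 and 5267 CPM. All 5 neural markers were at 0 in every cell. The 7 mesenchymal markers summed to 849.4 CPM in library 1 and 337.9 CPM in library 2, and 3 cells held at least 100 counts each of *Col1a1*, *Col1a2*, *Col3a1* and *Lum*. No cell name occurred in both libraries.

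Of the 62 guidance genes, 45 had a count in at least 1 cell, which was 72.6% of them beside 57.0% of all genes in the tables. Counts in both libraries were found for 31 members, in library 1 alone for 5 and in library 2 alone for 9. The other 17 were at 0 in all 87 cells, which allows a share of up to 3.45% of cells with a count for each and sets no limit on cells that express it. They were *Sema3c*, *Sema3e*, *Sema4a*, *Sema4f* and *Sema5b* among the semaphorins, *Plxnb3* among the plexins, *Epha3*, *Epha6*, *Epha8*, *Epha10*, *Ephb1* and *Ephb3* among the Eph receptors, and *Ntn1*, *Ntn4*, *Ntn5*, *Ntng1* and *Ntng2* among the netrins. The detected members summed to 711.4 CPM in library 1 and 1065 CPM in library 2. A cell had counts of a median of 5 members in library 1 (range 2 to 13) and of 13 members in library 2 (range 3 to 19). With each cell thinned to 20000 counts, the medians were 3 and 6.5, so the libraries also differed at an equal number of counts per cell.

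Most members were carried by few cells. Only 26 had a count in at least 10 cells, and 5 had one in 44 or more of the 87 cells, namely *Efna1*, *Robo4*, *Sema6a*, *Sema6d* and *Plxnb2*. In 32 of the 45 detected members the 3 cells with the most counts held over 50% of them, and in 22 members at least 90%. The plot of levels by library shows all 45.

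**Figure D1:**
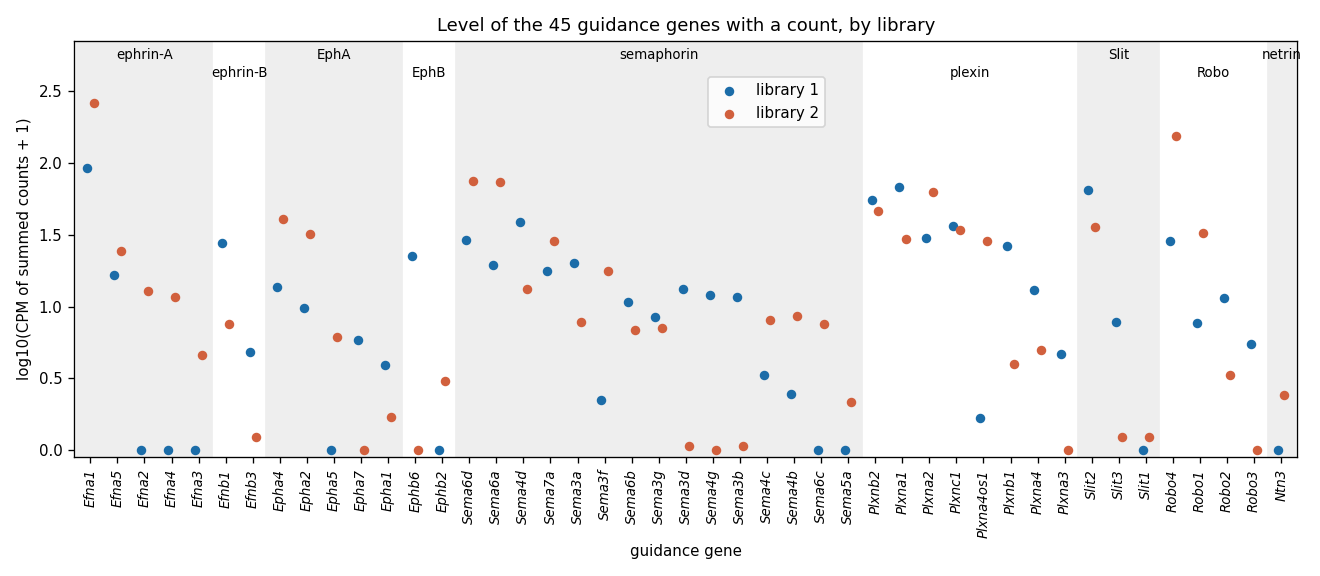
CPM of the summed counts, as log10(CPM + 1), of the 45 guidance genes with a count, grouped by class and ordered by mean level within it, with library 1 in blue and library 2 in orange. *Efna1* was the highest in both libraries, at 91.5 and 259.9 CPM, and points at 0 are members without a count in that library.

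Among the ephrin ligands, *Efna1*, a lipid-anchored ligand of EphA receptors, had 91.5 CPM in library 1 and 259.9 CPM in library 2, a mean of 175.7 ± 119.1 CPM (SD, n = 2 libraries). It ranked 1068 among all genes and had a count in 33 of 43 and 44 of 44 cells, or 88.5% of all cells (exact Clopper-Pearson 95% interval 79.9% to 94.4%, counting error only). It made up 84.4% of the ephrin-A level and 19.8% of the level of all members. *Efna5*, of the same ligand class, had 15.7 and 23.5 CPM and a count in 22 cells. The transmembrane ligand *Efnb1* had 26.5 CPM in library 1 and 6.53 CPM in library 2, and 67.2% of its counts lay in the 3 cells with mesenchymal counts, in which *Efna1* had 0.194% of its counts. *Efnb3* had 3.81 and 0.236 CPM in 3 cells in all. *Efna1* thus stood above the other ephrin members in both libraries, and its own level was higher in library 2. The ephrin left out by the rule, *Efnb2*, had 149.5 CPM in library 1, above *Efna1*, and 240.0 CPM in library 2, below it.

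As a class the EphA receptors had a lower summed level than the ephrin-A ligands, at 29.2 and 76.5 CPM beside 107.1 and 309.4 CPM, most of which was *Efna1*. *Epha4*, which can bind ephrins of both classes, had 12.8 CPM in library 1 and 39.7 CPM in library 2, with a count in 3 of 43 and 17 of 44 cells. *Epha2*, a receptor of *Efna1*, had 8.73 and 30.9 CPM and was found in 2 and 19 cells. *Epha1* had 2.91 and 0.708 CPM in 3 cells in all. In library 2 *Epha4* and *Epha2* were above *Efna5* and *Efnb1*. No EphB member had a count in both libraries: *Ephb6* was found in library 1 alone, at 21.5 CPM with 96.9% of its counts in 1 cell, and *Ephb2* in library 2 alone, at 2.05 CPM with 96.2% of its counts in the cells with mesenchymal counts. These EphB genes were named after their values had been seen. The EphB receptor left out by the rule, *Ephb4*, had 26.2 CPM in library 1 and 54.9 CPM in library 2, with a count in 61 cells.

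The semaphorins summed to 176.1 CPM in library 1 and 243.7 CPM in library 2, and the plexins to 227.0 and 203.5 CPM. *Sema6d* and *Sema6a*, transmembrane ligands of A-type plexins, had the highest mean levels of the semaphorins. *Sema6d* had 28.1 and 73.8 CPM with a count in 48 cells, and *Sema6a* had 18.4 and 72.3 CPM with a count in 49 cells. Both were higher in library 2. *Sema4d*, a ligand of *Plxnb1*, had 37.8 and 12.2 CPM in 18 cells and in library 1 it was above both. The secreted *Sema3a* had 19.0 CPM in library 1, where 1 cell held 98.8% of its counts, and 6.77 CPM in library 2. *Sema7a*, a lipid-anchored ligand of *Plxnc1*, had 16.8 and 27.6 CPM in 39 cells.

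Among the plexins *Plxnb2* had 54.0 and 45.5 CPM with a count in 45 cells, *Plxna1* had 67.3 and 28.4 CPM in 39 cells, and *Plxna2* had 28.8 and 61.6 CPM in 26 cells. Their means of 49.7, 47.8 and 45.2 CPM lay within the spread between the libraries, so no order among them was read. *Plxnb1*, a receptor of *Sema4d*, had 25.3 CPM in library 1 and 2.99 CPM in library 2, and 3 of its 7 cells held 97.4% of its counts. *Plxna4* had 12.1 and 4.01 CPM, with its antisense row *Plxna4os1* at 0.672 and 27.7 CPM. *Plxna4os1* (chromosome 6 of GRCm38, 32511073 to 32515576, plus strand) lies inside *Plxna4* (32144268 to 32588192, minus strand), and the strand setting of the counting was not given in the sources used here, so reads of the pair cannot be told apart.

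*Robo4*, the Robo receptor of endothelial cells, was the second highest member by the mean of the libraries, but not in library 1 alone, at 27.5 CPM in library 1 and 152.3 CPM in library 2, with a count in 14 of 43 and 37 of 44 cells. *Robo1* had 6.72 and 31.7 CPM in 34 cells, and *Robo2* had 10.4 and 2.36 CPM in 7 cells. The secreted *Slit2* had 64.2 and 35.02 CPM in 38 cells. *Slit3* had 6.83 and 0.236 CPM, and 68.8% of its counts lay in the cells with mesenchymal counts. *Robo4* was thus higher in library 2 and *Slit2* in library 1. Of the netrins only *Ntn3* had a count, in 3 cells of library 2 at 1.42 CPM, and it was named after its value had been seen.

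Several members lie beside each other in the genome (GENCODE M21, GRCm38). *Efna1* (chromosome 3, 89271733 to 89281142, minus strand) is followed after 32.8 kb by *Efna3* and after a further 10.4 kb by *Efna4*. *Efna3* and *Efna4* had no count in library 1 and 3.62 and 10.6 CPM in library 2. *Robo4* (chromosome 9, 37401897 to 37415115, plus strand) ends 554 bases before *Robo3*, which had 4.48 CPM in 1 cell of library 1. The neighbours of *Efna1* and *Robo4* therefore stood far below them. *Efna3*, *Efna4* and *Robo3* were chosen for their position.

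The sequences of 3 members are given because *Efna1*, *Epha4* and *Plxnb1* were lower in Runx1-high cells in the blocked fit described next and lie on separate chromosomes. *Sema6a*, which was also lower under that fit, is not shown. They are the parts of the RefSeq windows of 250 bases before the start (GRCm38.p6) that lie outside the GENCODE gene, written 5′ to 3′ on the strand of the gene, with capitals marking the letters of searched motifs of Runx, Ets, Rbpj, Gata and Sp1 or Klf factors on either strand, as spelled out after them.
Efna1, chr3:89281143-89281201, minus strand: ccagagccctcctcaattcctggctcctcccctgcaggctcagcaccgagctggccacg
Epha4, chr1:77515089-77515338, minus strand: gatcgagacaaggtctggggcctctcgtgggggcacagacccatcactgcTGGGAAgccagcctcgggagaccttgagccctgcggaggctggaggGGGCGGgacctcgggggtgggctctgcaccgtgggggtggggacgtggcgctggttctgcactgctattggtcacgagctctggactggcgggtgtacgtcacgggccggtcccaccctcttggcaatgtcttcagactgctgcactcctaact
Plxnb1, chr9:109095186-109095388, plus strand: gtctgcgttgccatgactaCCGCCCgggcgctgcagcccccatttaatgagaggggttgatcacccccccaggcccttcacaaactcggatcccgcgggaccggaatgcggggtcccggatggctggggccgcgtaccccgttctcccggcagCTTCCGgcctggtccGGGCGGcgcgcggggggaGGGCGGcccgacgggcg

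None of these 3 windows held the letters of the Runx motif (TGTGGT), which were in 6 of 53 members with a RefSeq window (11.3%) and in 12.1% of 17217 genes. The Rbpj letters (TGGGAA) were in the window of *Epha4*, in 11 members (20.8%) and in 21.1% of all genes. The Ets letters (CGGAAG) were in the windows of *Efna1* (within the GENCODE gene, so not printed) and *Plxnb1*, in 5 members (9.43%) and in 17.3% of all genes. The letters of the GC box (GGGCGG), bound by Sp1 and Klf factors, were in all 3 windows, in 37 members (69.8%) and in 43.1% of all genes, where the median GC content was 63.6% in members and 55.6% over all windows. Those of Gata factors (AGATAA) were in 2 members (3.77%) and in 8.98% of all genes. Such matches describe the letters of these windows and not bound sites.

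The first comparison asked how the guidance genes went with *Runx1*, the transcription factor needed for the step from endothelium to blood. *Runx1* had 300.4 CPM in library 1 and 136.5 CPM in library 2, with a count in 33 of 43 and 35 of 44 cells. Cells above the median of their library (52.2 and 10.03 CPM) were called Runx1-high, 21 and 22 cells, and the rest Runx1-low, 22 and 22 cells. In library 1, 7 cells lay within 1.5-fold of that median, and 5 in library 2. Some Runx1-high cells of library 2 held 1 *Runx1* count, while Runx1-low cells of library 1 included cells with 12 and 13. A class could thus rest on 1 count, and it meant unlike levels in the libraries. Counts were summed per library and class into 4 sums. Guidance genes were lower in the Runx1-high sums: the members together had 420.0 beside 1241 CPM in library 1 and 710.5 beside 1594 CPM in library 2. After thinning, a Runx1-high cell had a median of 2 members in library 1 and 5.5 in library 2, and a Runx1-low cell 4 and 7.

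Of the 27 members with enough counts to be tested among 10629 genes, 23 had a lower fitted level in Runx1-high sums and 4 a higher one, with a median log2 fold change of -1.35 beside -0.01 for all genes. The other 35 members did not pass the low-count filter, which asks for counts in several sums, and 17 of them had no count at all. Members left out by it went either way. *Ephb6* had 190 counts in the Runx1-high and 2 in the Runx1-low sums and *Sema3d* 105 and 5, while *Efna4* had 5 and 130 and *Sema3b* 7 and 89. The numbers of lower and higher members thus cover the tested ones only. In both libraries 16 members were lower, beside 26.3% of all genes, and 0 were higher, beside 28.8%. With the quasi-likelihood test of edgeR, adjusted after Benjamini and Hochberg over all genes and without a block, which treats the 4 sums as independent, 0 of the 27 were called, beside 0.00941% of all genes. At an unadjusted p under 0.05 that test had 5 members lower, beside 3.59% of all genes, and 0 higher, beside 1.94%. The sums of a number come from the same library, and with the library as a block 4 members fell, beside 1.19% of all genes, and 0 rose, beside 0.376%. DESeq2 without a block called 2 lower, *Epha4* and *Plxnb1*, beside 0.941% of all genes, and 0 higher, beside 0.263%. The counts of calls thus differed between these fits. *Plxnb1* was among the members called with the block and by DESeq2. It passed the low-count filter through its Runx1-low sums alone, which set its direction, so its call was not read as support.

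*Efna1* had 45.8 CPM in the Runx1-high and 174.3 CPM in the Runx1-low sum of library 1, and 136.7 and 443.6 CPM in those of library 2. The high sums did not overlap the low sums, and the difference was of like size in each library, -1.96 and -1.70 on the log2(CPM + 1) scale. The share of all genes with sums that did not overlap was not counted in either comparison, so no support was drawn from it here or below. The median cell had 17.6 against 35.9 CPM in library 1 and 100.6 against 340.8 CPM in library 2. In library 1 the number of cells with a count went the other way, 18 of 21 against 15 of 22. The highest cell there had 234.3 CPM in the Runx1-high and 2010 CPM in the Runx1-low class, so a few cells weighed on the low sum. In library 2 all 22 cells of each class had a count. The log2 fold change was -1.78 (SE 0.63, edgeR adjusted p = 0.798) without the block and -1.84 (SE 0.42, edgeR adjusted p = 0.00248) with it.

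*Epha4*, a receptor of *Efna1*, had 0.174 and 35.6 CPM in the Runx1-high and Runx1-low sums of library 1, and 5.92 and 90.1 CPM in those of library 2. The sums did not overlap. Its counts were found in 1 of 21 against 2 of 22 cells and in 7 of 22 against 10 of 22 cells, so the classes differed more in the counts of a few cells than in the number of cells, and 3 cells held 64.6% of all its counts. The log2 fold change was -4.37 (SE 1.47, edgeR adjusted p = 0.786) without and -5.32 (SE 1.43, edgeR adjusted p = 0.0177) with the block.

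*Sema6a* had 0.694 and 50.4 CPM in the Runx1-high and Runx1-low sums of library 1, in 4 and 9 cells, and 36.8 and 125.0 CPM in those of library 2, in 18 and 18 cells. The difference was larger in library 1, and the classes did not overlap. The fitted log2 fold change was -2.25 (SE 1.31, edgeR adjusted p = 0.958) without and -3.70 (SE 1.03, edgeR adjusted p = 0.0264) with the block.

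*Plxnb1* had 1 count in the Runx1-high and 263 counts in the Runx1-low sums, over 7 cells in all. It had 0.174 and 70.9 CPM in library 1 and 0 and 7.45 CPM in library 2. The ratio of the low to the high level was 424.7 (95% interval 75.6 to 16840, exact, counting error only), and the blocked test gave an edgeR adjusted p of 0.0253. With so few cells the interval does not cover the spread between cells. *Plxnb1* passed the low-count filter through its Runx1-low sums alone, so its direction was set by the filter and no support was drawn from its p-value.

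**Figure D2:**
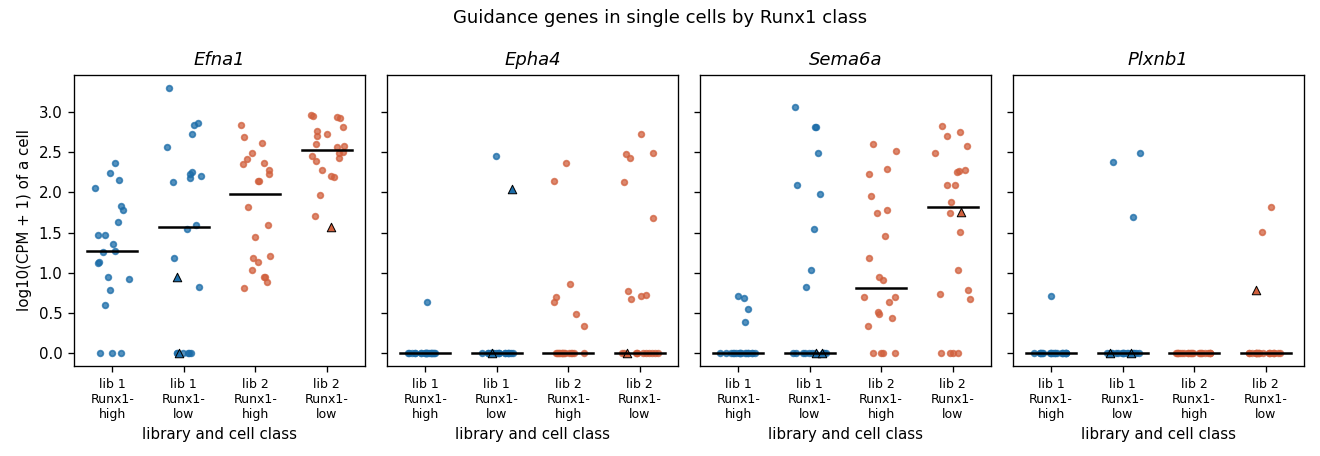
Level in each single cell, as log10(CPM + 1), of the 4 guidance genes called with the library as a block, by library and Runx1 class. Points are cells, bars are medians, triangles are the 3 cells with mesenchymal counts, and *Efna1* alone of the 4 has a median above 0 in every class.

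The other members with the largest changes that went the same way in each library were not called in the fits above. *Efna5* had 0 and 44.1 CPM in library 1 and 7.76 and 47.0 CPM in library 2 (log2 fold change -3.58, edgeR adjusted p = 0.902, 0.191 with the block), and it was called by DESeq2 with the block alone (adjusted p = 0.0115). *Plxna4* and *Sema3a* were at 0.174 CPM in the Runx1-high sum of library 1, with log2 fold changes of -3.52 and -3.41, and differed little in library 2. *Plxna1* had 11.1 and 169.2 CPM in the Runx1-high and Runx1-low sums of library 1 and 23.0 and 36.5 CPM in those of library 2, a log2(CPM + 1) difference of -3.87 and -0.64 (log2 fold change -2.65, SE 0.89, edgeR adjusted p = 0.786). *Plxnb2* differed by -2.34 and -0.999 on that scale (log2 fold change -1.74, SE 0.70, edgeR adjusted p = 0.876). Both differed more in library 1. *Plxnc1*, named after its values had been seen, had a count in 43 cells and went in opposite directions, by 1.53 and -0.92 (log2 fold change 0.19, SE 0.98). *Slit2* had a fitted difference near 0, with 67.2 and 58.6 CPM in the Runx1-high and Runx1-low sums of library 1 and 34.9 and 35.3 CPM in those of library 2 (log2 fold change 0.08, SE 0.76). *Robo4*, with 13.5 and 53.0 CPM in library 1 and 125.1 and 192.8 CPM in library 2, was not called either (log2 fold change -0.85, SE 0.94, edgeR adjusted p = 1.0).

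Other measures moved with the Runx1 classes. The endothelial markers summed to 2267 against 4494 CPM in the Runx1-high and Runx1-low sums of library 1 and to 4015 against 7133 CPM in those of library 2. The mesenchymal markers summed to 50.2 against 2300 CPM and to 29.3 against 797.7 CPM, and all 3 cells with mesenchymal counts were Runx1-low. The hematopoietic markers other than *Runx1* went the other way, with 580.6 against 456.1 CPM and 253.6 against 68.6 CPM, as did the erythroid markers, with 15.6 against 0.315 CPM and 33.1 against 6.47 CPM. The macrophage markers summed to 66.2 against 302.6 CPM and to 146.0 against 189.9 CPM. Without the 3 cells with mesenchymal counts the same 4 members were called with the block, *Efna1* at -1.98 with an edgeR adjusted p of 0.00163. *Plxnb1*, whose direction was set by the filter, was again among them. The median depth of a cell was 260240 against 95376 counts in library 1 and 271733.5 against 213444 in library 2, so the Runx1-high cells were deeper. Thinned cells were split anew on their thinned *Runx1* level, into 21 high and 21 low cells in library 1 and 19 and 25 in library 2. There 11 members could be tested, 0 were called with the block, and the log2 fold change of *Efna1* was -1.97 (edgeR adjusted p = 0.188). Classes and depth both changed in this setting, so the part of depth alone was not tested. With cells split by whether they had a *Runx1* count, 0 of 30 members were called, and their median was -0.47 without and 0.39 with the block. The part of the marker levels in the result was not tested.

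The second comparison asked how the members went with *Gja5*, the connexin of arterial endothelium. *Gja5* had 126.4 CPM in library 1 and 614.7 CPM in library 2, with medians over cells of 10.01 and 146.9 CPM that split the cells into 21 and 22 Gja5-high and 22 and 22 Gja5-low cells. In library 1, 14 cells lay within 1.5-fold of the median, and 9 in library 2. Some Gja5-high cells of library 1 held 1 *Gja5* count. Both comparisons used the same cells. Of the Runx1-low cells, 11 of 22 in library 1 and 13 of 22 in library 2 were Gja5-high. The members together had 814.9 CPM in the Gja5-high and 607.1 CPM in the Gja5-low sum of library 1, and 1232 and 904.4 CPM in those of library 2.

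Of 28 members tested among 10653 genes, 16 had a higher and 12 a lower fitted level in Gja5-high sums, with a median log2 fold change of 0.17 beside 0.00 for all genes. In both libraries 10 members were higher, beside 26.9% of all genes, and 5 lower, beside 27.2%. Without a block edgeR called 0 members, beside 0.0% of all genes, and at an unadjusted p under 0.05 it had 3 members higher, beside 2.75%, and 0 lower, beside 1.31%. With the block 1 member, *Efna1*, rose, beside 0.798% of all genes, and 0 fell, beside 0.0845%. DESeq2 without a block called 2 higher, *Epha4* and *Plxnb1*, beside 0.704% of all genes, and 0 lower, beside 0.141%. Members were thus found on either side. *Plxnb1* passed the low-count filter through its Gja5-high sums alone, which set its direction, so its call was not read as support.

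*Efna1* had 137.1 CPM in the Gja5-high and 45.4 CPM in the Gja5-low sum of library 1, and 410.1 and 115.4 CPM in those of library 2. The classes did not overlap, and the log2(CPM + 1) difference was 1.54 and 1.83. The log2 fold change was 1.76 (SE 0.64, edgeR adjusted p = 1.0) without and 1.70 (SE 0.36, edgeR adjusted p = 0.0139) with the block. It stayed called with the block in thinned cells, at 2.13 (edgeR adjusted p = 0.000983), and without the cells with mesenchymal counts, at 1.75 (edgeR adjusted p = 0.00815). Cells were split anew in both settings, after thinning into 17 high and 25 low cells in library 1 and 21 and 23 in library 2.

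*Epha4* had 25.4 and 0 CPM in the Gja5-high and Gja5-low sums of library 1, and 77.5 and 3.40 CPM in those of library 2. It was found in 3 of 21 against 0 of 22 cells and in 12 of 22 against 5 of 22 cells, and its log2 fold change of 4.87 (SE 1.68) had an edgeR adjusted p of 1.0 without and 0.0586 with the block. *Plxnb1* had 262 counts in the Gja5-high and 2 in the Gja5-low sums, a ratio of 133.5 (95% interval 36.6 to 1108, exact, counting error only) and an edgeR adjusted p of 0.253 with the block. It passed the low-count filter through the Gja5-high sums alone, so its direction was set by the filter. *Epha4* and *Plxnb1* passed the threshold by DESeq2 alone of the tests without a block, with adjusted p-values of 0.0464 and 0.0298.

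Members that were not called included *Sema7a*, with 32.8 and 0.674 CPM in the Gja5-high and Gja5-low sums of library 1 and 46.1 and 9.89 CPM in those of library 2 (log2 fold change 2.90, SE 1.39, edgeR adjusted p = 1.0, 0.447 with the block). *Sema4d* went the other way, with 0.446 and 75.6 CPM in library 1 and 9.79 and 14.5 CPM in library 2 (log2 fold change -3.16, SE 1.53). *Slit3* had 11.6 and 2.02 CPM in library 1 and 0.481 and 0 CPM in library 2. *Robo4*, *Sema6d* and *Plxnb2* went in opposite directions in the libraries, with log2 fold changes of -0.39, -0.06 and -0.21. *Sema6a* had 29.7 and 6.97 CPM in library 1 and 65.3 and 78.9 CPM in library 2, so it too went in opposite directions. The endothelial markers summed to 4163 against 1943 CPM and to 6040 against 4523 CPM in the Gja5-high and Gja5-low sums. The mesenchymal markers summed to 993.1 against 704.4 CPM and to 662.2 against 25.8 CPM, and the hematopoietic markers to 678.3 against 996.5 CPM and to 196.7 against 430.3 CPM. Endothelial and mesenchymal markers were thus higher, and hematopoietic markers lower, in Gja5-high sums of both libraries. The part of these levels in the result was not tested.

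**Figure D3:**
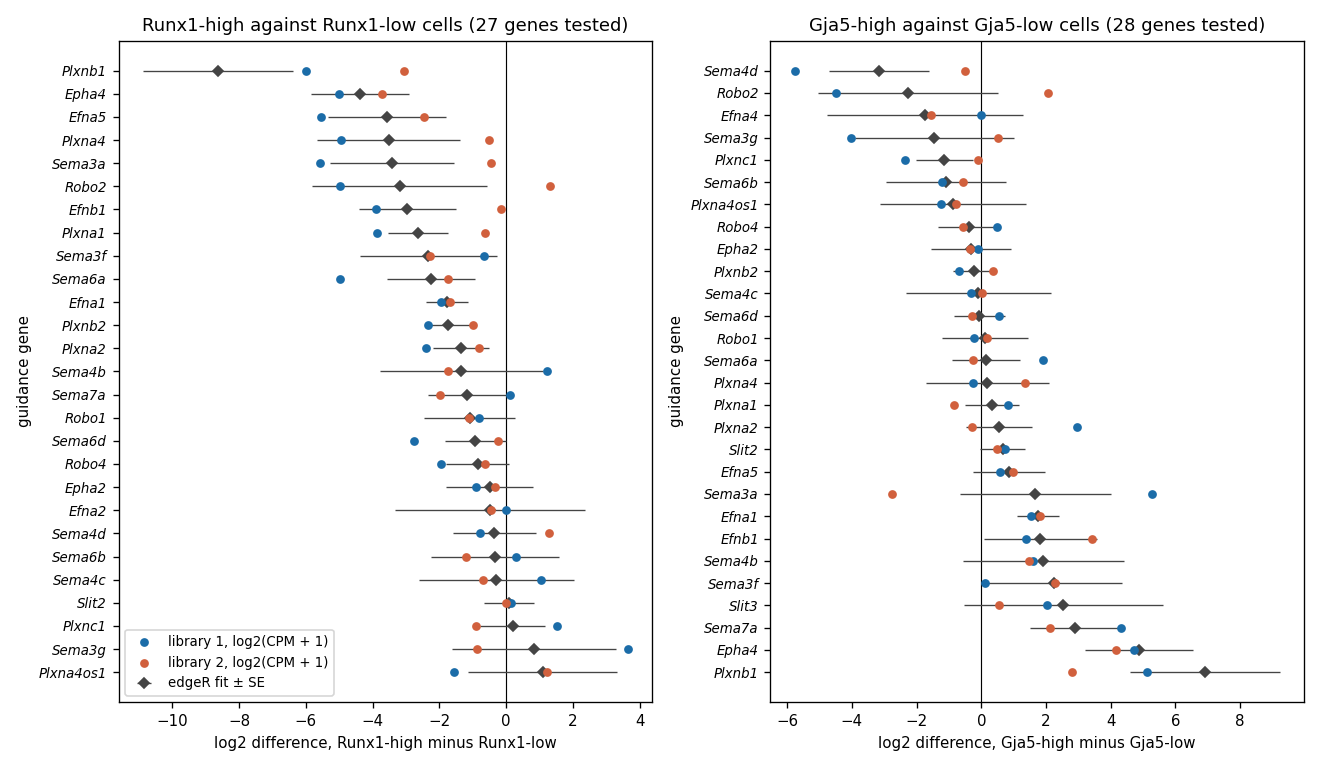
Difference between high and low cells for each guidance gene tested, along Runx1 (left, 27 genes) and along Gja5 (right, 28 genes). Diamonds with bars are edgeR log2 fold changes ± SE without a block, with the SE calculated back from the test. Circles are the log2(CPM + 1) differences within each library. The left panel has 16 members and the right panel 5 below 0 in both libraries.

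Across the cells of a library, *Efna1* was the only member with a count in enough cells of each library to be ranked against the genes of the splits. Its Spearman rho with *Runx1* was -0.12 over 43 cells of library 1 and -0.55 over 44 cells of library 2, where 3660 genes detected as broadly had medians of 0.12 and 0.11. With *Gja5* it was 0.34 and 0.67, beside medians of 0.02 and 0.00 and upper ends of that range of 0.31 and 0.36. In thinned cells the values were -0.03 and -0.50 with *Runx1* and 0.27 and 0.66 with *Gja5*. The relation was thus stronger in the deeper library, and that with *Runx1* in library 1 lay within the range of other genes. It was a description of cells that share a library and differ in depth, with no test.

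**Figure D4:**
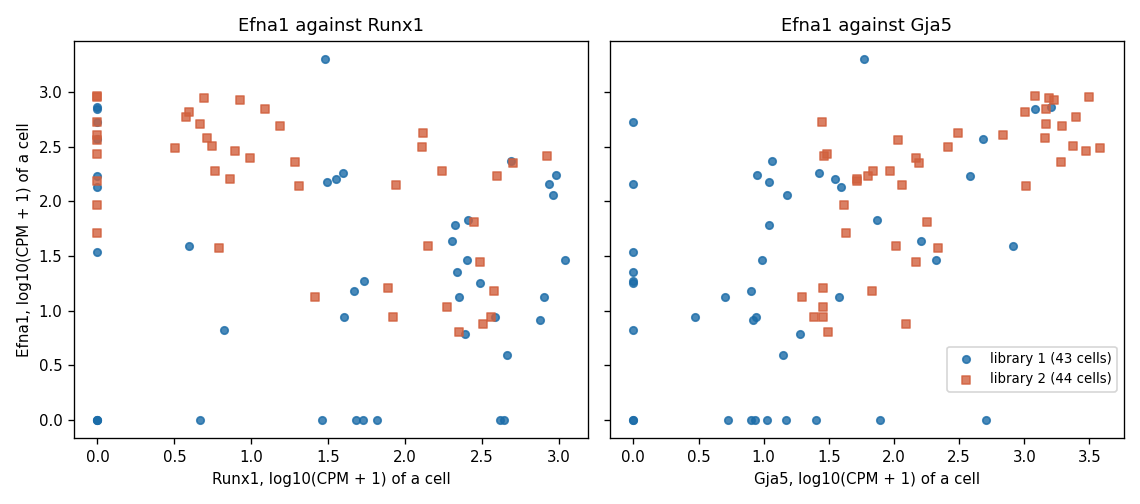
*Efna1* against *Runx1* (left) and *Gja5* (right) in single cells, each as log10(CPM + 1), with library 1 as blue circles (43 cells) and library 2 as orange squares (44 cells). In library 2 *Efna1* falls as *Runx1* rises (rho -0.55) and rises with *Gja5* (rho 0.67), while library 1 is more scattered (-0.12 and 0.34).

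Ligands and their receptors were then read in the same cells after thinning, which kept 42 and 44 cells. *Efna1* and *Epha2* were found together in 1 cell of library 1 (18 cells with *Efna1*, 2 with *Epha2*) and in 11 cells of library 2 (37 and 13). *Efna1* and *Epha4* were found together in 1 cell and in 8 cells, the latter being every cell of library 2 with *Epha4*. With *Efna1* in 37 of 44 cells of library 2, no relation was read from these counts. *Slit2* and *Robo4* were found together in 1 of 42 and 8 of 44 cells, with 9 and 13 cells holding *Slit2* and 7 and 27 holding *Robo4*. Whether *Slit2* is a ligand of *Robo4* in these cells was not tested. *Sema6d* and *Plxna1* met in 2 and 5 cells, *Sema4d* and *Plxnb1* in 1 and 0 cells, and *Sema7a* and *Plxnc1* in 1 and 1 cell. No test was made on these counts, which depend on depth.

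The 64 partner genes, the coreceptors and signalling proteins of these receptors with the 3 genes left out by the rule, were mostly detected, 52 with a count. The highest were *Nrp1*, the semaphorin and VEGF coreceptor, at 506.0 and 650.5 CPM, *Plxnd1*, the endothelial plexin, at 461.0 and 635.5 CPM, *Efnb2*, the arterial ephrin, at 149.5 and 240.0 CPM, *Dpysl2*, a cytoskeletal effector, at 138.0 and 180.9 CPM, and *Gipc1*, an adaptor that binds plexins and neuropilins, at 76.7 and 231.9 CPM. *Nrp1* and *Plxnd1* stood above every member in both libraries. Of 46 partners tested along Runx1, 21 were lower and 5 higher in both libraries (26.3% and 28.8% of all genes), and the median log2 fold change was -0.34. With the block (1.19% of all genes lower and 0.376% higher) *Nrp1* (-1.41, edgeR adjusted p = 0.000857) and *Efnb2* (-1.59, edgeR adjusted p = 0.0148) fell while 0 rose. Of 49 tested along Gja5, 19 were higher and 11 lower in both libraries (26.9% and 27.2% of all genes). With the block (0.798% of all genes higher and 0.0845% lower) *Nrp1* (1.75, edgeR adjusted p = 3.15e-05), *Efnb2* (2.17, edgeR adjusted p = 0.000695) and *Met* (7.21, edgeR adjusted p = 0.0236) rose while 0 fell. *Met*, a receptor kinase that can associate with B-type plexins, had 38.8 and 0 CPM in the Gja5-high and Gja5-low sums of library 1 and 57.6 and 0.772 CPM in those of library 2. It passed the low-count filter through the Gja5-high sums alone, so its direction was set by the filter. No support was drawn from its p-value, nor from its part in the counts of called partners. *Plxnd1* was called in neither comparison, at -0.45 (SE 0.38) along Runx1 and 0.17 (SE 0.35) along Gja5. Without a block edgeR called 0 partners in either comparison, beside 0.00941% of all genes along Runx1 and 0.0% along Gja5. At an unadjusted p under 0.05 it had 5 partners lower (3.59% of all genes) and 0 higher (1.94%) along Runx1. Along Gja5 it had 6 higher (2.75%) and 0 lower (1.31%). DESeq2 without a block called 1 partner lower (0.941% of all genes) and 0 higher (0.263%) along Runx1, and 3 higher (0.704%) and 0 lower (0.141%) along Gja5.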

How the data were processed

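Cells were profiled by modified STRT-seq. Per the methods, the authors assigned reads to cells by barcode, aligned them to mm10 with HISAT2 2.1.0, counted uniquely mapped reads with HTSeq and collapsed duplicates by UMI. The deposited counts are therefore transcript counts per gene and cell without normalization. The presence of remaining duplicates was not tested, and cells with few genes or too many reads had already been left out by the authors. No cell was removed here and no doublet caller was run.

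The members and lists were chosen with earlier results of these data known. Counts were summed per library and class and compared without a block by the quasi-likelihood test of edgeR 4.0.16 under R 4.3.3, after its low-count filter and TMM scaling. P-values were adjusted by Benjamini-Hochberg over all genes tested except the gene of the split, with a threshold of 0.05. The SE given with an edgeR log2 fold change was calculated back from the test. It was the size of the coefficient before shrinkage divided by the square root of the F value, while the log2 fold change shown was the shrunken one. The replicate number pairs the sums, because both sums of a number were made from 1 library. Their deviations from the class means correlated at 0.197 (Runx1) and 0.202 (Gja5) across genes. Alternatives were the library as a block, DESeq2 1.42.0, RLE size factors, no low-count filter, thinned cells (20000 counts, 1 cell left out), other splits, no cells with mesenchymal counts, and each library left out. The high and low classes were made anew after thinning and after leaving out the cells with mesenchymal counts. The tests were tried on simulated data. Named were, in each class, up to 3 members with the highest mean CPM among those in both libraries, members called with or without the block, in each comparison the 5 largest changes of the same direction in both libraries, and the partners that were called or among the 5 highest. Intervals of shares are exact and cover counting error only. Gene positions were those of GENCODE M21 for all 62 members, and RefSeq windows were taken as the first listed per gene. The scripts ran in Python 3.11.15 (pandas 2.3.3; numpy 2.4.6; scipy 1.17.1), with matplotlib 3.10.9 for the plots.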

Additional observations from a re-analysis of the deposited data

How the results depend on the processing

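The 4 sums per comparison, few counts in few cells and the unequal depth of the Runx1 classes limit these results, and the cause of the changes below was not tested unless stated. The fits with a block in thinned cells, in other splits or without the cells with mesenchymal counts were chosen after seeing the data. Splitting cells by whether they had a *Gja5* count was not run, since all 44 cells of library 2 had 1 or more. The counts of called members below include *Plxnb1*, whose direction was set by the low-count filter. This holds for DESeq2 in both comparisons and for the replicate block along Runx1.

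Along Runx1, 0 members and 1 gene were called in the comparison as reported. The replicate block gave 4 members and 166 genes, DESeq2 gave 2 and 128, DESeq2 with the replicate block 5 and 305, and no low-count filter 1 and 67. With RLE size factors 0 and 1 were called. Thinned cells gave 0 members and 3 genes (4 genes with the replicate block), cells with a *Runx1* count against those with 0 gave 0 and 0 (5 genes with the block), the extreme classes (cells with the highest against those with the lowest levels, the middle ones left out) gave 0 and 0 (114 genes with the block), and leaving out the cells with mesenchymal counts gave 0 and 0 (4 members and 147 genes with the block). The median of the members moved to -0.47 in the split by a *Runx1* count and to 0.39 there with the block, and lay from -1.95 to -0.83 with 1 library left out.

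Along Gja5, 0 members and 0 genes were called. The replicate block gave 1 member and 94 genes, DESeq2 gave 2 and 90, DESeq2 with the replicate block 3 and 172, and no low-count filter 0 and 50. Thinned cells gave 0 members and 2 genes (1 and 60 with the block), the extreme classes gave 0 and 0 (2 and 166 with the block), and leaving out the cells with mesenchymal counts gave 0 and 0 (1 and 104 with the block). From 0.17, the median of the members moved to 0.38 with the replicate block and in DESeq2 with it, to -0.065 with no low-count filter, to 0.50 in thinned cells (0.72 with the block) and to 0.55 in the extreme classes (1.76 with the block), and lay from 0.27 to 0.52 with 1 library left out. Thinning left out low members, so fewer were tested (13 of 28).

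Of 410 values of named genes under the alternatives with a test, 350 kept direction and side of the threshold, 35 passed the threshold and 25 changed sign, none of the last being called. Along Runx1 these were *Sema4d* (0.29 with the replicate block, 0.27 in DESeq2 with it, 1.40 in the split by a *Runx1* count, 2.103 in the extreme classes), *Efnb1* (0.76 in the split by a count, 0.47 without the cells with mesenchymal counts), *Robo1* (0.17) and *Met* (5.97) in the split by a count, and *Gipc1* (0.39 in thinned cells). Along Gja5 they were, with the replicate block and in DESeq2 with it, *Plxna1* (-0.012 and -0.009), *Robo1* (-0.022 and -0.019) and *Sema6d* (0.13 and 0.13). In thinned cells they were *Epha2* (0.50), *Plxnb2* (1.70), *Robo1* (-0.97), *Sema6a* (-0.016) and *Gipc1* (-0.20), in the extreme classes *Plxnb2* (0.40), *Robo4* (0.61), *Sema6a* (-0.057) and *Gipc1* (-0.54), and without the cells with mesenchymal counts *Plxna1* (-0.20). Over the alternatives with a test, the edgeR or DESeq2 adjusted p of *Efna1* ran from 0.00119 to 0.798 along Runx1 and from 0.0066 to 1.0 along Gja5. For *Epha4* it ran from 0.00079 to 0.947 and from 0.00137 to 1.0. The number of detected members (44 to 45, and 36 to 40 with 1 library left out) moved by less than 1.5 times. With both libraries kept, their summed level and the level and correlations of *Efna1* moved by less than the spread between the libraries. With 1 library left out, the levels could not move by more than that spread, because the reported level was the mean of the 2 libraries. No stability was therefore read from that setting, and *Efna1* had 91.5 CPM in library 1 and 259.9 CPM in library 2.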
